A study of Rattus norvegicus with 6 samples.

Results

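The Krüppel-like factors are a family of transcription factors, and 9 of their genes, Klf2, Klf3, Klf4, Klf5, Klf6, Klf9, Klf10, Klf13 and Klf15, were followed on arrays of rat pluripotent cells. The members were chosen by gene symbol, with the differences between the groups on these same arrays already known, so their values below are a description and carry no test. The 9 genes had 24 probe sets (the sets of short probes that measure a transcript on an Affymetrix array) among 31042 probe sets that are not controls, and the annotation of those named 14217 genes.

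The study compared 3 samples of rat flat pluripotent stem (fPS) cells with 3 samples of rat embryonic stem (ES) cells, with 1 array per sample. All came from Sprague-Dawley rats. Per the labels' protocols, which are alike for both groups, cells were kept on mouse embryonic fibroblast feeders blocked with mitomycin C, with medium containing serum named for that step, and were cultured in a medium with N2, B27, human LIF, the GSK3 inhibitor CHIR99021 and the MEK inhibitor PD0325901. The labels do not say how the fPS cells were derived or whether samples came from separate cultures, and the description field of the fPS samples names embryonic stem cells, in contrast to their titles. The p-values given for other genes therefore rest on a spread between arrays that may be partly or wholly technical.

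Family members share 3 zinc fingers at the carboxyl end of the protein that bind GC-rich and CACCC-type DNA, and differ in the rest of the protein, which recruits coactivators or corepressors. In mouse ES cells Klf2, Klf4 and Klf5 belong to the circuit that keeps the naive state. LIF acts on Klf4 through STAT3. Other members are known from other tissues, among them erythroid cells, fat, liver, muscle and lymphocytes.

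The deposited values are linear intensities with no detection calls. Differences are of log2(intensity + 16), fPS minus ES, with the standard error (SE) of a limma fit over all probe sets, and understate the change of dim probe sets. For a gene with several probe sets, the brightest over the 6 arrays, called its leading probe set, is given first. Probe sets differ in how strongly they bind, so intensities of different genes are not ranked. The SDs are over 3 arrays per group throughout. On the fPS arrays the median intensity was 45.3, 39.8 and 36.2 for replicates 1, 2 and 3, and on the ES arrays 37.6, 38.7 and 37.7. The leading probe sets of 7 of the 9 members lay above the array median on all 6 arrays, the exceptions being those of Klf3 and Klf15.

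Of 10 markers listed for pluripotent cells only Sox2, Esrrb and Epcam were measured, and these 3 lay above the median on all 6 arrays. Their summed intensity was 5269 to 7341 in fPS and 7262 to 9726 in ES cells. The 12 fibroblast markers summed to 649 to 1877 in fPS and 372 to 2529 in ES cells, with the highest sum of each group on replicate 3; Thy1 and Pdgfrb lay below the median on all 6 arrays. The 6 endoderm markers summed to 412 to 465 in fPS and 177 to 205 in ES cells, with 2 of them above and Afp below the median on all 6 arrays. The 4 trophoblast markers summed to 151 to 309 in fPS and 589 to 1222 in ES cells. Of these 1 lay above and Gata3 and Krt7 below the median on all 6 arrays. In the limma fit (adjusted p under 0.05) 1 trophoblast and 0 endoderm markers were called, against 0.858% of all genes. Sums of intensity weigh the brightest markers most. The endoderm and trophoblast sums thus differed between the groups without overlap, and their part in the values below was not tested. In such bulk RNA, fewer cells of a type and less RNA per cell cannot be told apart.

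**Figure D1:**
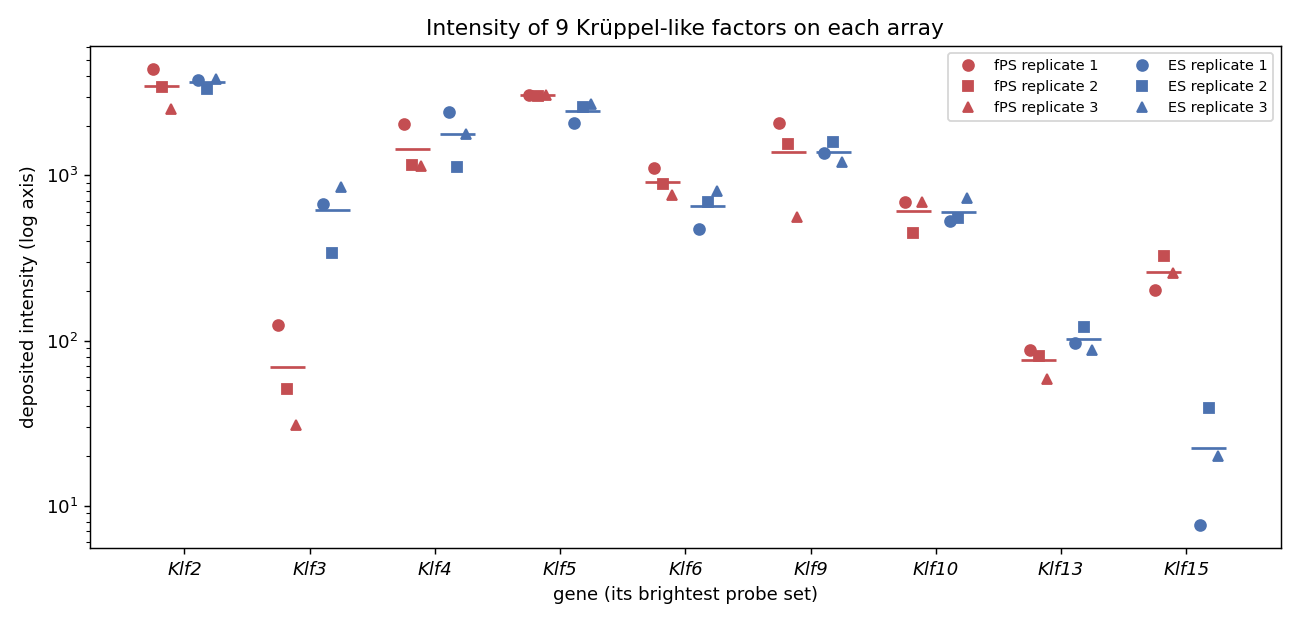
Deposited intensity (log axis) of the brightest probe set of each of the 9 genes, with 1 point per array, fPS left of ES and a line at the group mean (n = 3 each). Groups of points separate without overlap for Klf3, Klf5, Klf13 and Klf15. Each gene has its own probe set, so heights are read within a gene.

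The 3 members of the naive circuit were bright in both cell types, and their differences were small beside those of Klf3 and Klf15. Klf2, which supports self-renewal of mouse ES cells in the presence of a MEK inhibitor, had intensities of 4420, 3432 and 2506 in fPS and 3770, 3352 and 3849 in ES cells. The fPS arrays spread to both sides of the ES arrays, and the log2 difference was -0.12 (SE 0.249). That sign did not hold under every scaling: it was 0.045 after quantile normalization and -0.18 with each array centred on its median. Without fPS replicate 3 it was 0.093.

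The other 4 probe sets named for Klf2 gave log2 differences from -0.52 to 0.16, and in all 5 the groups overlapped. The only positive one belonged to a probe set marked as possibly binding other transcripts, and a negative one of -0.29 belonged to another set so marked. The dimmest, with means of 8.54 in fPS and 8.98 in ES cells, lay below the median on all 6 arrays. Klf2 was thus the 1 gene of the 6 with several probe sets whose probe sets differed in sign.

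Klf4, the reprogramming factor that binds with Oct4 and Sox2, had a single probe set with 2056, 1151 and 1139 in fPS and 2409, 1118 and 1779 in ES cells. Both groups covered much the same range, with an SD of 526 among fPS arrays and 645 among ES arrays. The log2 difference was -0.27 (SE 0.342). It ran from -0.57 without ES replicate 2 to -0.019 without ES replicate 1, so single arrays set its size.

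Klf5, a factor of ES cell self-renewal and of gut epithelium, had 3083, 3011 and 3075 in fPS and 2076, 2584 and 2703 in ES cells. The fPS arrays lay close together and all above the ES arrays. The log2 difference was 0.32 (SE 0.203), a ratio of mean intensities of 1.25. All 4 Klf5 probe sets gave a positive difference, from 0.28 to 0.55, and the groups overlapped in the other 3. In the 13 alternatives that can move the difference it ran from 0.21 to 0.46.

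**Figure D2:**
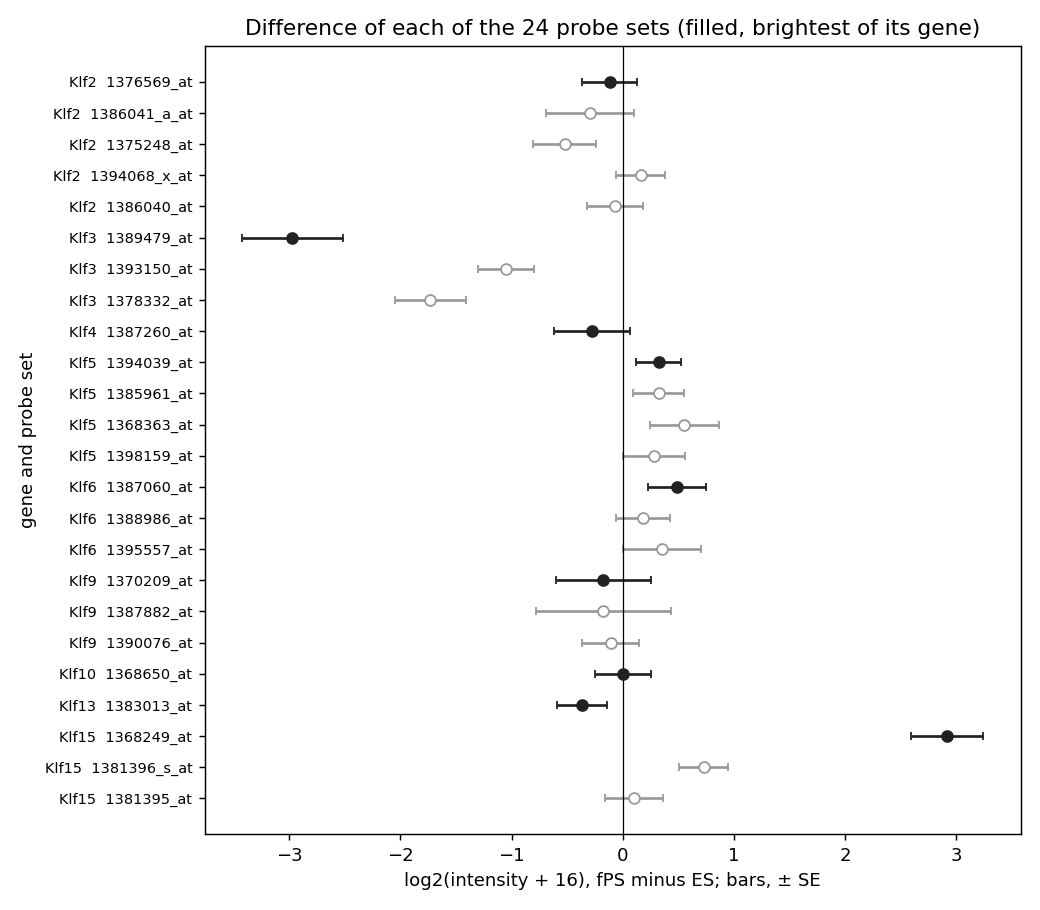
Log2 difference, fPS minus ES, of all 24 probe sets, with bars of 1 SE from the limma fit and the brightest probe set of each gene filled. Klf3 probe sets lie left of 0 and Klf5, Klf6 and Klf15 probe sets right of 0, while those of Klf2 lie on both sides.

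Klf3, a repressor that recruits the corepressor CtBP and is known from erythroid cells and fat, was lower in fPS cells on every probe set. The leading one, 1389479_at, had 125, 50.8 and 30.6 in fPS and 669, 338 and 856 in ES cells. The highest fPS array lay below the lowest ES array, and the groups averaged 68.7 ± 49.6 in fPS and 621 ± 262 in ES cells (SD, n = 3). The log2 difference was -2.97 (SE 0.453), with fPS replicate 3 below the array median.

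The other Klf3 probe sets had the same sign and no overlap, with smaller differences. On 1378332_at the intensities were 63.2, 47.2 and 23.3 in fPS and 241, 132 and 173 in ES cells, a log2 difference of -1.73 (SE 0.316). On 1393150_at they were 131, 79.7 and 80.2 in fPS and 175, 224 and 248 in ES cells, a log2 difference of -1.05 (SE 0.251). The mean over the 3 was -1.92. Within fPS cells, replicate 1 was highest on all 3 probe sets.

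Klf15, a factor of amino acid and glucose metabolism in liver and muscle that glucocorticoids induce, was higher in fPS cells. The leading probe set, 1368249_at, had 203, 324 and 255 in fPS and 7.61, 39.0 and 20.1 in ES cells. All fPS arrays were above all ES arrays, with means of 261 ± 60.5 in fPS and 22.2 ± 15.8 in ES cells (SD, n = 3). The log2 difference was 2.92 (SE 0.327). Of the ES arrays, only replicate 2 lay above its array median, so the ES values were in the dim range and the ratio of mean intensities, 11.7, depends on them.

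The 3 Klf15 probe sets agreed in sign but not in size. The unspecific set 1381396_s_at had 58.9, 71.3 and 56.5 in fPS and 29.2, 42.3 and 23.8 in ES cells, a log2 difference of 0.73 (SE 0.223) with no overlap. The last, 1381395_at, had 8.52, 7.04 and 20.0 in fPS and 7.13, 6.08 and 16.4 in ES cells, a difference of 0.098 (SE 0.259) between overlapping groups. That probe set lay below the median on all 6 arrays. The mean over the 3 was 1.25, and with pseudocounts of 1 and 64 in place of 16 the leading probe set gave 3.73 and 1.91.

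Klf15 and Klf3 differed most between the groups and in opposite directions, so the 250 bases before their annotated starts are shown, from RefSeq on GRCr8. Capitals mark the CACCC box that family members bind (or GGGTG on the other strand) and the E-box CACGTG. Klf15 lies at chr4:124522765-124523014 on the plus strand and Klf3 at chr14:43850827-43851076 on the minus strand.
Klf15: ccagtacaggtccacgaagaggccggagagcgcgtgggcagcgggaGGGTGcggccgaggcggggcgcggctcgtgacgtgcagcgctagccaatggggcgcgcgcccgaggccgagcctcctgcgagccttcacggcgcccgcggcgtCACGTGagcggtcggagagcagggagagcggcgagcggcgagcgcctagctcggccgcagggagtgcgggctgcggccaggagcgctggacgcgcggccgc
Klf3: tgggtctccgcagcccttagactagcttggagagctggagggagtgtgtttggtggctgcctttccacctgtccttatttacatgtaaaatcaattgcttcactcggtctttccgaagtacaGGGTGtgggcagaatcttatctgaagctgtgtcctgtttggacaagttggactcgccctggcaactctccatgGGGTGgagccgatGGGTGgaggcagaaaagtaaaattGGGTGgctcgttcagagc

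The windows differ in base composition, with 77.2% G and C for Klf15 and 52.0% for Klf3. The Klf3 window held 4 CACCC boxes and that of Klf15 held 1, together with 1 E-box. Over the 33469 promoter windows of the same length, 49.2% held at least 1 CACCC box, 2.18% held 4 or more, and 5.59% held an E-box, each read on both strands. Of the 9 members, 6 had a window in the table, and of these 4 held a CACCC box, 2 an E-box and 1, Klf6, the GC box GGGCGG, which 30.5% of all windows held. Klf2, Klf10 and Klf13 had none in the table. These motifs do not overlap each other in the windows shown, and a match is a description of letters.

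Klf9, Klf10 and Klf13 are members that repress through the Sin3A corepressor. Klf9, which glucocorticoids and thyroid hormone induce in several tissues, had 2064, 1552 and 563 in fPS and 1375, 1593 and 1199 in ES cells. The fPS arrays spread widely, with replicate 3 below and replicate 1 above all ES arrays (SD 763 in fPS and 197 in ES cells). The log2 difference was -0.18 (SE 0.430), and it was 0.37 without fPS replicate 3 and -0.55 without fPS replicate 1. The other 2 Klf9 probe sets were dim and gave -0.17 and -0.11.

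Klf10, first described in human bone cells as a gene that TGF-β induces early, had 688, 450 and 690 in fPS and 527, 550 and 733 in ES cells. Its groups overlapped almost wholly, with a log2 difference of 0.0028 (SE 0.250) that was -0.057 with centred arrays and 0.13 after quantile normalization. Klf13, a factor studied in T lymphocytes and heart, had 87.5, 81.0 and 58.9 in fPS and 96.7, 121 and 88.0 in ES cells. All fPS arrays lay below all ES arrays, but fPS replicate 1 and ES replicate 3 differed by less than 1 unit of intensity, and the log2 difference was -0.37 (SE 0.225). Each of these genes had 1 probe set.

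Klf6, a widely expressed member that responds to tissue injury, had 1109, 881 and 762 in fPS and 475, 689 and 804 in ES cells. The lowest fPS array lay below the highest ES array, and the log2 difference was 0.49 (SE 0.261). All 3 Klf6 probe sets gave a positive difference, of 0.49, 0.18 and 0.35, with overlapping groups in each. Replicate 3 of each group had the highest collagen signal of its group. The mean log2 value over 7 collagen genes was 6.59, 6.31 and 7.47 on fPS replicates 1, 2 and 3 and 5.598, 6.327 and 7.67 on ES replicates 1, 2 and 3. Among ES arrays Klf6 and the collagen mean rose in the same order of replicates, while among fPS arrays Klf6 was lowest on replicate 3. The part of feeder RNA in the Klf6 values was not tested. With the collagen level as a covariate the Klf6 difference was 0.44, and without replicate 3 of both groups it was 0.77.

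By the limma test, adjusted over all 31042 probe sets by the Benjamini-Hochberg method, the leading probe sets of 2 of the 9 members were called, Klf15 higher and Klf3 lower. Over all genes 0.858% were called, 0.570% higher and 0.288% lower. Since these differences were known when the members were chosen, nothing is read from the count. Of the 24 probe sets 2 were called, against 0.693% of all probe sets. The groups did not overlap for 4 of the 9 members, Klf5 and Klf15 higher and Klf3 and Klf13 lower, where 22.6% of all genes did not overlap, 11.3% higher and 11.3% lower. They did not overlap in 7 of the 24 probe sets, against 20.0% of all probe sets. Without ES replicate 1, ES replicate 3, fPS replicate 2 or fPS replicate 3, and with a pseudocount of 1, 0 members were called. Of all 31042 probe sets 0, 1, 0, 4 and 0 were called in these settings, in that order. Without replicate 3 of both groups 0 members and 0 probe sets were called, while Klf3 had a difference of -2.35 and Klf15 one of 2.92. Klf15 alone was called without ES replicate 2, with a pseudocount of 64 and with the collagen covariate, where 27, 41 and 95 of all probe sets were called. The Klf3 difference in these settings was -3.35, -2.35 and -2.97, so it was no smaller without that array or with the covariate than the reported -2.97. The median difference was -0.12 over the 9 leading probe sets, 4 of them positive, and -4.6e-05 over all genes.

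Several members were high or low on the same arrays. Within fPS cells replicate 1 was the highest array for 7 of the 9 leading probe sets, the exceptions being Klf10 and Klf15, and replicate 3 was the lowest for 6. Replicate 1 also had the highest median intensity of the fPS arrays, 45.3, and replicate 3 the lowest, 36.2. Within ES cells replicate 3 was highest for 5 and replicate 1 lowest for 4. The part of the array level in these orders was not tested. On the log2 scale the SD was larger in fPS cells for 5 members, most of all Klf9 with 0.97 in fPS and 0.20 in ES cells, and larger in ES cells for the other 4, among them Klf5 with 0.019 in fPS and 0.20 in ES cells.

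**Figure D3:**
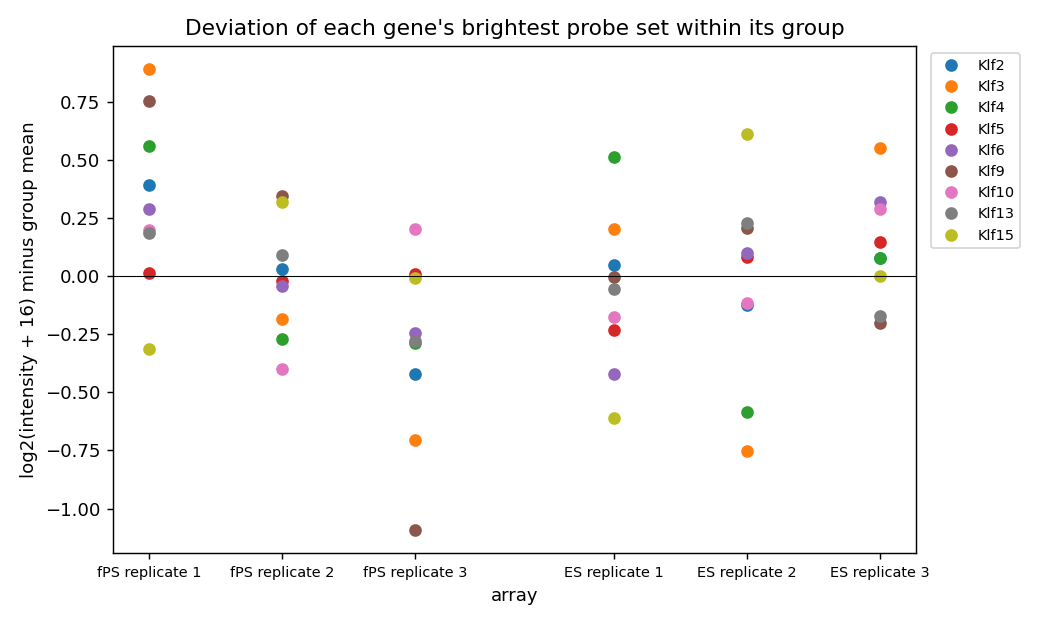
Log2(intensity + 16) of each gene's brightest probe set minus the mean of its group, by array, with fPS arrays left of ES arrays. On fPS replicate 1 the points of 8 genes lie above 0, with Klf15 below, and the widest deviation is that of Klf9 on fPS replicate 3.

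Of 18 other genes of the KLF and SP families (SP factors bind the same GC-rich sites with a similar zinc finger domain), 9 were measured. By their leading probe sets none passed the limma test (adjusted p under 0.05 over all probe sets). An unadjusted p under 0.05 was reached by 1, Sp2, against 4795 of all 31042 probe sets, dim ones included. Sp2 had 62.0, 96.6 and 57.6 in fPS and 43.2, 41.9 and 45.97 in ES cells, a log2 difference of 0.54 (SE 0.228, adjusted p = 0.308). Its fPS arrays all lay above its ES arrays. Sp4 had a log2 difference of -0.40 (SE 0.295, adjusted p = 0.58) on a probe set below the median on all 6 arrays. The median over the 9 genes was 0.077, with 5 positive. Other probe sets of these genes had smaller adjusted p than Sp2, though none passed. One for Klf7 gave -0.98 with no overlap (adjusted p = 0.094), opposite in sign to the leading set with 0.15. For Klf11, 2 others gave 0.70 and 0.86 with no overlap (adjusted p = 0.235 and 0.139), beside 0.19 on the leading set. By leading probe sets none of the 9 was called in any of the 17 alternatives run for this count.

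The log2 patterns most like that of Klf3 over the 6 arrays were those of Elavl2, Sephs1 and Scaf4, with Pearson's r of 0.998, 0.997 and 0.997. Those most like Klf15 were C1galt1, Cox7a1 and Pdlim7, with 0.995, 0.995 and 0.994. These are the highest of 20542 named probe sets, and 22 of them exceeded 0.99 for Klf3 and 7 for Klf15. The points share the arrays and the split into fPS and ES cells, so a gene that differs in the same direction gains a high r from the groups alone.

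Lists of the family's partners, inputs and targets held 61 genes, of which 55 were measured. Of these 3 rose, 0 fell and 52 did not pass, with a median log2 difference of -0.051 against -4.6e-05 over all genes. The 3 were Fos, Egr1 and Tsc22d3, and 0.858% of all genes passed. These lists were chosen with earlier results of these data known. Nothing is therefore read from the count, and the adjusted p of list genes are descriptions rather than independent tests. An unadjusted p under 0.05 in limma was reached by 16 of the 55, against 4795 of all 31042 probe sets. The 55 are leading probe sets, while the 31042 include dim ones. With the dimmest 50% left out of the fit, 3502 of 15521 probe sets had such a p. Counts at that threshold in the lists below are to be read beside both shares.

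Among 5 genes of the serum response, the program of immediate-early genes that serum switches on, Fos and Egr1 rose, and 3 did not pass. Egr1, an immediate-early factor, had 248, 527 and 334 in fPS and 38.3, 53.0 and 27.5 in ES cells, a log2 difference of 2.75 (SE 0.306, adjusted p = 0.0284). Fos had 1450, 2322 and 2694 in fPS and 29.96, 20.8 and 270 in ES cells, 4.74 (SE 0.686, adjusted p = 0.0354), while its dim other probe set gave -0.27. Junb, a partner of Fos in the AP-1 dimer, had 94.5, 138 and 106 in fPS and 13.1, 6.10 and 57.2 in ES cells, 1.82 with no overlap (SE 0.412, adjusted p = 0.0851). It was called with the dimmest 30% or 50% of probe sets left out and with the trend and robust settings. Ier2, another immediate-early gene, was lower without overlap, with -0.50 (SE 0.237, adjusted p = 0.367), and Srf, the serum response factor itself, had 0.36 (adjusted p = 0.606).

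Of 5 measured genes of glucocorticoid response, which induces Klf9 and Klf15, only Tsc22d3 passed. Tsc22d3, a leucine zipper protein that glucocorticoids induce, had 405, 685 and 885 in fPS and 119, 180 and 186 in ES cells, a log2 difference of 1.88 (SE 0.314, adjusted p = 0.0428). Sgk1, a kinase with the same inducer, had 1173, 431 and 303 in fPS and 1637, 1123 and 1771 in ES cells, and its difference of -1.44 did not pass (SE 0.450, adjusted p = 0.176). The list median was -0.18, with 1 of 5 positive.

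Leaving out ES replicate 1, fPS replicate 2 or fPS replicate 3 left 0 of these list calls, where 0, 0 and 4 of all 31042 probe sets were called. Egr1 alone was called without ES replicate 2 and Fos alone without ES replicate 3, where 27 and 1 of all probe sets were called. Without fPS replicate 1 the calls were Tsc22d3, Egr1 and Sgk1, and with the collagen covariate Fos and Egr1.

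Of 12 genes that members regulate in other tissues 0 passed in limma. An unadjusted p under 0.05 was reached by 4, against 4795 of all 31042 probe sets, dim ones included. Slc2a4, the insulin-responsive glucose transporter, and Bcat2, an enzyme of branched-chain amino acid breakdown, are targets of Klf15 in muscle. The leading Slc2a4 probe set had 57.9, 70.2 and 136 in fPS and 2.41, 23.6 and 25.7 in ES cells. Its log2 difference was 1.67 (SE 0.384, adjusted p = 0.0897). The other Slc2a4 probe set, with means of 19.1 in fPS and 22.0 in ES cells, lay below the median on every array. It gave -0.17, so the higher value rests on the leading probe set alone. That leading set has the suffix a_at, a suffix treated here as unspecific. Bcat2 had 940, 842 and 1118 in fPS and 254, 505 and 588 in ES cells, 1.15 (SE 0.315, adjusted p = 0.133). The groups did not overlap on the leading probe set of either gene. Other enzymes of amino acid breakdown on the list had log2 differences of -0.37 for Gpt, lower without overlap, -0.095 for Prodh and 0.052 for Tat (adjusted p = 0.474, 0.958 and 0.943). The Tat probe set lay below the median on every array. Slc2a4 was called with the dimmest 30% or 50% of probe sets left out and with the trend and robust settings, and Bcat2 with the dimmest 50% left out.

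Of 13 cofactors and ubiquitin ligases 0 passed in limma, and 2 had an unadjusted p under 0.05. The CtBP genes Ctbp1 and Ctbp2, partners of Klf3, had log2 differences of -0.59 and -0.64 (adjusted p = 0.331 and 0.412). Sin3a, partner of Klf9, Klf10 and Klf13, had 0.051 and its paralogue Sin3b 0.79 (adjusted p = 0.957 and 0.182). The other Sin3b probe set gave -0.54. Wwp1, a ligase that marks Klf2 and Klf5 for degradation, had 0.67 (adjusted p = 0.332).

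Of 6 LIF and STAT3 genes 0 passed, with 2 at an unadjusted p under 0.05 in limma and a median of 0.51. Socs3, the feedback inhibitor of the pathway, and the kinase Jak1 had 0.77 and 0.67 (adjusted p = 0.224 and 0.225). Of 5 ERK5 and MEF2 genes, a route that induces Klf2 and Klf4 in endothelium, 0 passed, with 1 at an unadjusted p under 0.05. Mapk7, which encodes ERK5, had 26.2, 9.44 and 4.01 in fPS and 42.7, 59.2 and 74.4 in ES cells, -1.41 (SE 0.310, adjusted p = 0.0797), with no overlap. Each fPS value lay below its array median, so the difference rests on dim values. Mapk7 was called with centred arrays, without the dimmest 30% of probe sets and with the trend and robust settings. Map2k5, the kinase above it, had -0.53 (adjusted p = 0.362).

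Of 4 TGF-β genes measured 0 passed in limma, with 1 at an unadjusted p under 0.05, and Skil and Smad7, inhibitors of the pathway, had -0.63 and -0.43 (adjusted p = 0.265 and 0.549). Of 5 measured pluripotency partners 0 passed, again with 1 at an unadjusted p under 0.05. Sox2 had -0.97 with no overlap (adjusted p = 0.181) and Esrrb, a naive-state factor, -0.29 (adjusted p = 0.634). The other Sox2 probe sets gave -1.48, -1.23 and -0.49, each with overlapping groups.

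**Figure D4:**
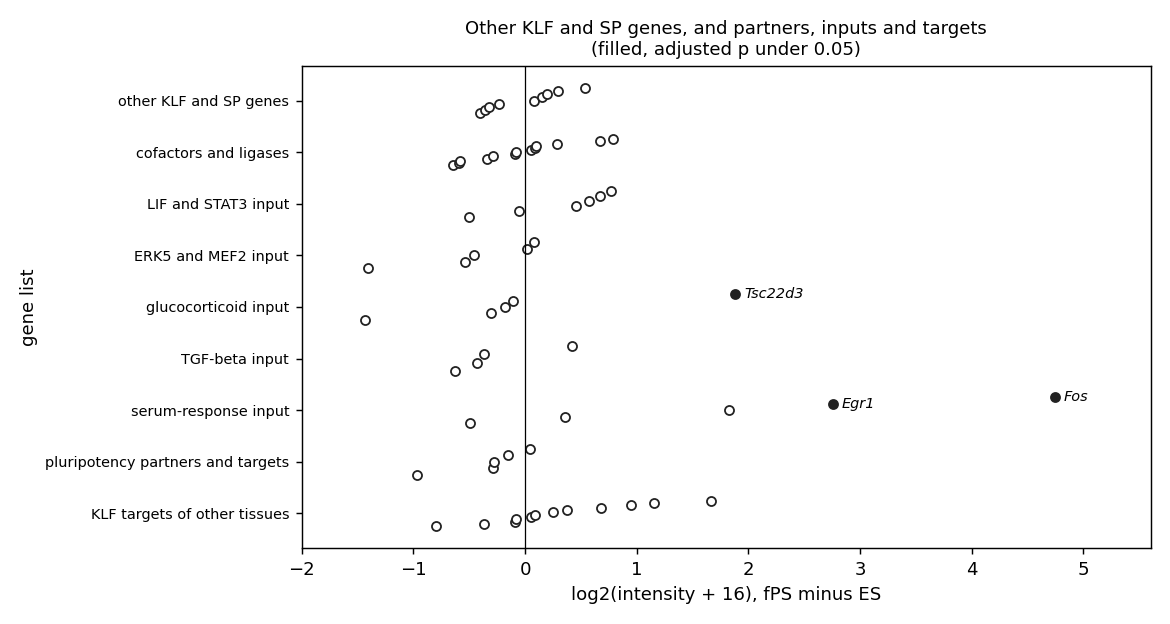
Log2 difference, fPS minus ES, of the leading probe set of each measured gene outside the 9 members, by list, filled where the adjusted p was under 0.05. Fos, Egr1 and Tsc22d3 are the filled points, and the 9 other KLF and SP genes lie between -0.40 and 0.54.

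**Figure D5:**
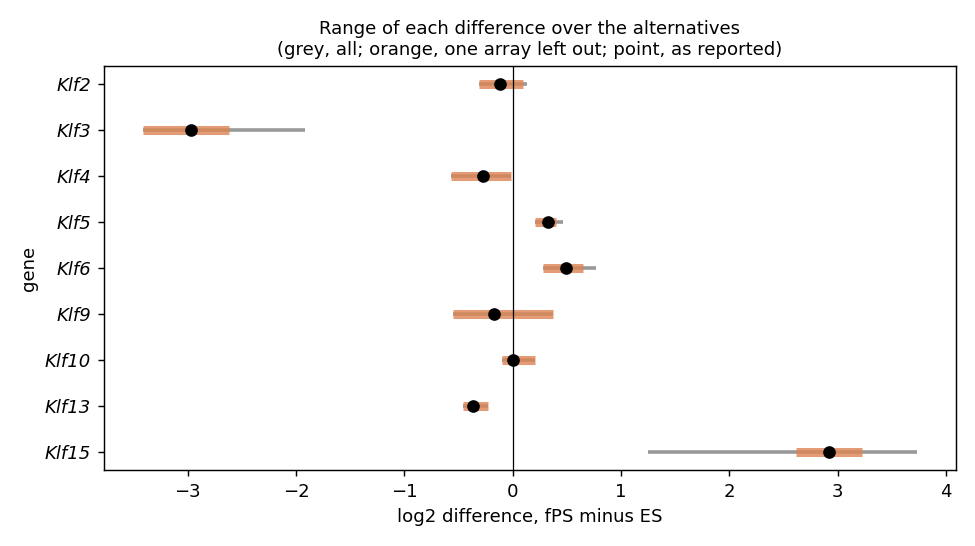
Range of each member's log2 difference over 18 alternatives (grey), of which 5 or 6 leave the difference as it is, and with 1 array left out (orange), with the reported value as a point. The ranges of Klf2, Klf9 and Klf10 cross 0, and those of the other 6 genes do not.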

How the data were processed

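Biotin-labelled RNA of 3 fPS and 3 ES samples was measured on Affymetrix arrays. The deposited table gives a linear intensity for each probe set on each array. How probes were summarised and scaled is not stated in the labels, and the table held 0 other columns per sample. The table's 57 control probe sets were left out of 31099. Names came from the platform's annotation, which can be old: 20826 probe sets had 1 symbol, 436 several (left unnamed) and 9780 none. All 24 member probe sets were found by gene identifier in a RefSeq table (GRCr8), with 0 symbols changed.

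The log2(intensity + 16) values were fitted with limma 3.58.1 in R 4.3.3 (lmFit, eBayes), two-sided, adjusted by Benjamini-Hochberg over 31042 probe sets at a threshold of 0.05, with no filter. The fit was also run on simulated independent normal values. These follow the model of the fit, so that run cannot show how the fit does on spread shared within arrays or technical spread. The number of arrays limits the precision. Members and lists were chosen with earlier results of these data known. All member probe sets are named. From other lists, genes past the threshold and the 2 with the largest absolute difference are named. Ctbp1, Ctbp2, Sin3a, Gpt, Prodh, Tat, Junb, Ier2, Srf, Klf7 and Klf11 were added after their values were seen. Genes most like a member were the 3 of highest r for the 2 members that differed most. Alternatives covered normalization, pseudocount, dim probe sets, those with the suffix x_at, s_at or a_at, the variance model and the replicate block. They also covered single arrays, collagen level and the mean over probe sets. Figures used matplotlib 3.10.9.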

Additional observations from a re-analysis of the deposited data

How the results depend on the processing

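Of 18 alternatives, 5 (6 for genes with 1 probe set) cannot move a member's difference. In the other 13 (12) Klf3, Klf4, Klf5, Klf6, Klf13 and Klf15 kept their sign, while Klf2, Klf9 and Klf10 took the other sign in 3, 2 and 6. Of 31042 probe sets 215 were called (57.7% of them higher). Quantile normalization gave 337, centred arrays 376 (40.4% higher), pseudocounts of 1 and 64 gave 0 and 41, leaving out the dimmest 30% and 50% gave 759 and 899, the trend and robust settings 619, and the collagen covariate 95. The replicate block gave 107 and changed no call of a member or list gene. Deviations from the group mean had r of 0.15, 0.020 and 0.075 over probe sets between same-numbered samples. Between samples of different number r ran from -0.14 to 0.054. These few weak r cannot decide whether the numbers pair samples. Leaving out single arrays gave 0 (without ES replicate 1 or fPS replicate 2) to 162 (without fPS replicate 1), and leaving out replicate 3 of both groups, an alternative chosen after seeing the data, gave 0. Where 0 passed in limma, 3943 (pseudocount of 1), 3824 (without ES replicate 1), 3215 (without fPS replicate 2) and 4618 (without replicate 3 of both groups) had an unadjusted p under 0.05. Of the 55 partner, input and target genes 3 were called, with 0 at pseudocounts of 1 and 64 and without replicate 3 of both groups, 6 without the dimmest 30% or 50% and with the trend and robust settings, and 0 to 3 without single arrays. The causes were not tested. No detection calls were at hand, so dim probe sets have no stated limit of detection.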
